A study of Rattus norvegicus with 6 samples.

Results

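The genes described here are the PGC-1 family of transcriptional coactivators, the transcription factors they work with, and nuclear genes that copy and transcribe the mitochondrial genome. They were the 10 entries of the deposited count table with the symbols Ppargc1a, Ppargc1b, Pprc1, Nrf1, Gabpa, Esrra, Tfam, Tfb2m, Polg and Twnk, out of 40456 genes in the table. Measurements came from poly-A RNA sequencing of H9c2 (2-1) cells, an established rat cardiomyoblast line labelled as wild type. All cells had been kept for 5 days in medium with 1% serum and 1 µM retinoic acid, and all then received a locked nucleic acid gapmer at 25 nM by lipofection, 24 h before harvest. Gapmers are antisense oligonucleotides with a DNA centre, and RNase H cuts RNA paired with that centre. The Tug1 gapmer, aimed at a long non-coding RNA of that name, was given to 3 samples, and a negative control gapmer to the other 3. The untreated state of the line was not analysed here, so every difference is between 2 transfected groups of 1 cell line, and no label says whether replicates were separate cultures. P-values therefore measure the spread between these libraries, which may be technical.

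The pair of oligonucleotides sets the only labelled difference between the groups, and both are shown 5′ to 3′ as the labels give them.
Tug1 gapmer: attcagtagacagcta
control gapmer: gctcccttcaatccaa

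PGC-1α, PGC-1β and the PGC-1-related coactivator (from Ppargc1a, Ppargc1b and Pprc1) do not bind DNA themselves but dock on transcription factors and recruit the machinery that activates genes of mitochondrial energy metabolism. Their classical partners are nuclear respiratory factor 1 (Nrf1), GA-binding protein, whose DNA-binding subunit is made from Gabpa, and the estrogen-related receptor α (Esrra). Among the genes these factors control are those for proteins that work inside mitochondria on the organelle's own circular genome: Tfam packages and bends that DNA and starts transcription from it, Tfb2m opens the promoter for the mitochondrial RNA polymerase, Polg is the catalytic subunit of the replicative DNA polymerase, and Twnk is the helicase that unwinds DNA ahead of it. Heart and muscle depend on this system more than most tissues, and in kidney podocytes Tug1 has been described as a positive regulator of Ppargc1a.

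Total counts were 12978548 to 13544337 per library. Levels are in CPM, which relate a count to the size of its library, here with TMM factors applied, and 1 CPM stood for 12.9 to 13.8 counts. Tug1 itself was at 54.7, 52.0 and 55.4 CPM in the controls and at 11.9, 11.2 and 12.5 CPM after the Tug1 gapmer (replicates 1, 2 and 3, the order used throughout), so the values follow the labels. In edgeR's quasi-likelihood test, with p-values adjusted by the Benjamini-Hochberg method and a threshold of 0.05, 61.7% of 14216 tested genes differed, 30.8% as higher and 30.9% as lower after the Tug1 gapmer. The labelled cell type was cardiomyocyte. Of 12 cardiac markers, 6 (Myh6, Myh7, Nppb, Ryr2, Nkx2-5 and Tbx5) had at most 3 counts in every library, while Tnnt2 was at 349 CPM in controls. Of the 4 tested, Tnnt2 and Actc1 were higher, Pln was lower (log2 fold change -0.68) and Gata4 did not pass (-0.26). The summed level, most of it Tnnt2, was 382 to 412 CPM in controls and 430 to 484 CPM after the Tug1 gapmer. Of 10 skeletal muscle markers 9 were tested, 8 of them higher and 1 (Myod1) lower, and their summed level was 929 to 940 CPM in control libraries and 1391 to 1478 CPM after the Tug1 gapmer. All 6 fibroblast markers had more than 3 counts in some library. Of the 5 tested, Dcn (log2 fold change 0.57) and Col3a1 (0.47) were higher and Thy1 (-0.40) and Col1a1 (-0.23) lower. Lum (-0.06) did not pass. Most of the summed level of the 6 was Col1a1. The sums overlapped (28785 to 29700 CPM in controls, 27346 to 29353 CPM after the Tug1 gapmer). Of 5 endothelial markers, Pecam1, Cdh5 and Kdr had at most 3 counts in every library, and Vwf did not reach the filter. Tek was tested and did not pass, with means of 3.01 CPM in controls and 2.44 CPM after the Tug1 gapmer. The leukocyte markers Ptprc and Adgre1 had at most 3 counts in every library. Of 4 macrophage markers 1 (Cd68) was higher, and their summed level was 10.6 to 12.1 CPM in controls and 15.4 to 17.2 CPM after the Tug1 gapmer. The part of the shifts in cardiac, skeletal muscle, fibroblast and macrophage markers in the results below was not tested.

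Of the 10 genes, 9 had enough counts to be tested and 7 passed the threshold, 3 higher (Ppargc1b, Esrra, Twnk) and 4 lower (Pprc1, Tfam, Tfb2m, Polg) after the Tug1 gapmer. With 9 genes, 7 is near what the 61.7% of all tested genes would give, so the number called is not a result about these genes; which of them went up and which went down is described below. Their median absolute log2 fold change was 0.52, against 0.34 over all tested genes. The 3 control and 3 Tug1 gapmer values did not overlap in 8 of the 9, against 65.6% of all tested genes. RNA was taken from whole wells, so fewer cells of a type and less RNA per cell cannot be told apart.

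**Figure D1:**
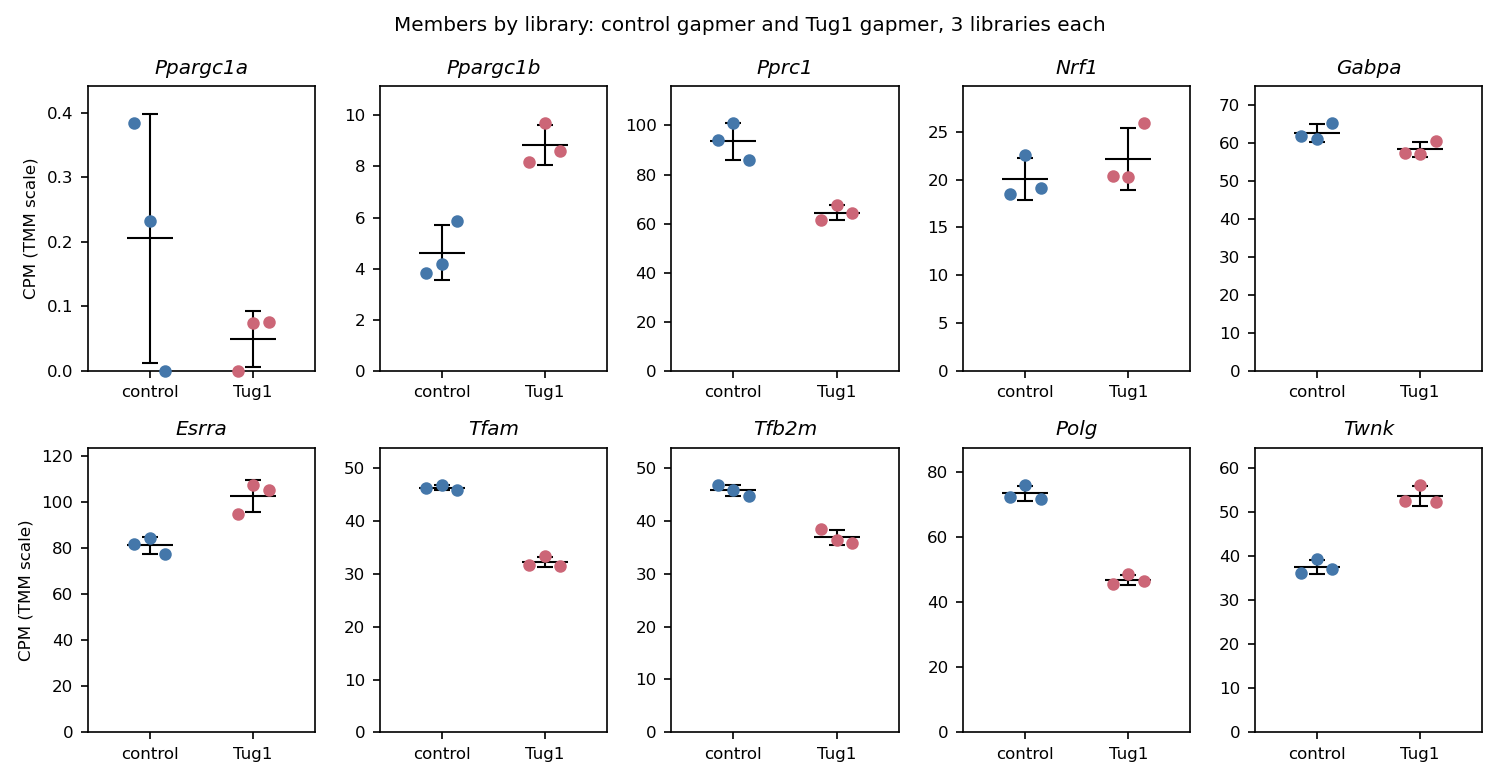
Level of each of the 10 genes in each library, in CPM on a linear axis from 0, with 3 control gapmer libraries (blue) and 3 Tug1 gapmer libraries (red); bars are the mean and the SD. The groups separate upwards for Ppargc1b, Esrra and Twnk and downwards for Pprc1, Gabpa, Tfam, Tfb2m and Polg, overlap for Nrf1, and Ppargc1a stays under 0.4 CPM everywhere.

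Ppargc1a, the best known member of the coactivator family, was close to undetected in these cells. Its counts were 5, 3 and 0 in the controls (replicates 1, 2 and 3) and 0, 1 and 1 after the Tug1 gapmer. Only control replicate 1 rose above the 3 counts taken as the limit of detection, which lay at 0.217 to 0.232 CPM. Summed over libraries, 8 control counts gave 0.206 CPM (exact Poisson 95% interval 0.0887 to 0.405) and 2 Tug1 gapmer counts gave 0.0493 CPM (0.00597 to 0.178). The ratio of Tug1 gapmer to control was 0.240 with an exact 95% counting interval of 0.0248 to 1.20, so a difference was not detectable at this depth, and the interval allows for a large fall as well as for none. These intervals cover counting error only, since no molecular identifiers are described and PCR copies are not independent.

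Of the other coactivators, Ppargc1b rose and Pprc1 fell. Ppargc1b had 3.84, 4.18 and 5.86 CPM in the controls and 8.19, 9.69 and 8.61 CPM after the Tug1 gapmer, from 50 to 76 and 113 to 131 counts. Every Tug1 gapmer library was above every control library, with control replicate 3 the highest of its group. Means were 4.63 ± 1.08 and 8.83 ± 0.774 CPM (SD, n = 3), and the log2 fold change was 0.93 (SE 0.161, 95% interval 0.60 to 1.27, edgeR adjusted p 2.84e-05). PGC-1β shares with PGC-1α the coactivation of respiratory chain genes. Its log2 fold change was 1.14 without control replicate 3 and 0.74 when a trend with genomic gene length was removed, and it passed the threshold in both.

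Pprc1 encodes a coactivator that is induced by serum as an early growth response and binds NRF1 like its relatives. It had 94.0, 101 and 85.9 CPM in the controls and 61.4, 67.8 and 64.4 CPM after the Tug1 gapmer. The groups did not overlap, and the lowest control library was 85.9 CPM against a highest Tug1 gapmer library of 67.8 CPM. The fall was to 68.9% of the control mean (log2 fold change -0.54, SE 0.0626, edgeR adjusted p 1.13e-07).

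Of the DNA-binding partners of these coactivators, Esrra rose, and Nrf1 and Gabpa did not pass the threshold. Nrf1 had 18.5, 22.5 and 19.1 CPM in the controls and 20.4, 20.3 and 25.9 CPM after the Tug1 gapmer, and the groups overlapped, with Tug1 gapmer replicate 3 the highest of all. Its log2 fold change was 0.14 (95% interval -0.07 to 0.36, edgeR adjusted p 0.231) and turned to -0.06 when the trend with gene length was removed. Gabpa had 61.7, 61.0 and 65.2 CPM in the controls and 57.3, 57.2 and 60.6 CPM after the Tug1 gapmer. The Gabpa groups just missed each other, and the log2 fold change of -0.10 (95% interval -0.22 to 0.02, edgeR adjusted p 0.131) did not pass the threshold. For both genes the interval leaves room for a small change, so equal levels are not shown.

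Esrra had 82.0, 84.7 and 77.4 CPM in the controls and 94.96, 108 and 106 CPM after the Tug1 gapmer, with no overlap. Its means were 81.3 ± 3.71 and 103 ± 6.81 CPM (SD, n = 3), and the log2 fold change was 0.34 (SE 0.0587 with edgeR adjusted p 3.12e-05). ERRα is an orphan nuclear receptor whose activity depends on PGC-1 coactivators. The other members of its family did not reach the filter: Esrrb had 0 counts in all libraries and Esrrg 2 control counts and 1 Tug1 gapmer count in sum.

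GABPα binds DNA as a complex with a β subunit that carries the activation domain, and the 2 β subunit genes changed in opposite directions. Gabpb1 had 17.6, 21.2 and 19.7 CPM in the controls and 9.28, 8.51 and 10.3 CPM after the Tug1 gapmer, with a log2 fold change of -1.06 (SE 0.11 with edgeR adjusted p 1.68e-08). Gabpb2 had 11.9, 11.2 and 12.9 CPM in the controls and 24.6, 25.2 and 23.2 CPM after the Tug1 gapmer, with a log2 fold change of 1.02 (SE 0.0934 with edgeR adjusted p 2.48e-09). Within each library, the log2 ratio of Gabpb1 to Gabpb2 counts was 0.57, 0.92 and 0.61 in the controls and -1.40, -1.56 and -1.17 after the Tug1 gapmer; this pair was chosen after its values were seen and is given as a description. The log2 ratio of Gabpa to Gabpb1 went from 1.68 ± 0.145 to 2.64 ± 0.0946 (SD, n = 3), without overlap.

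**Figure D2:**
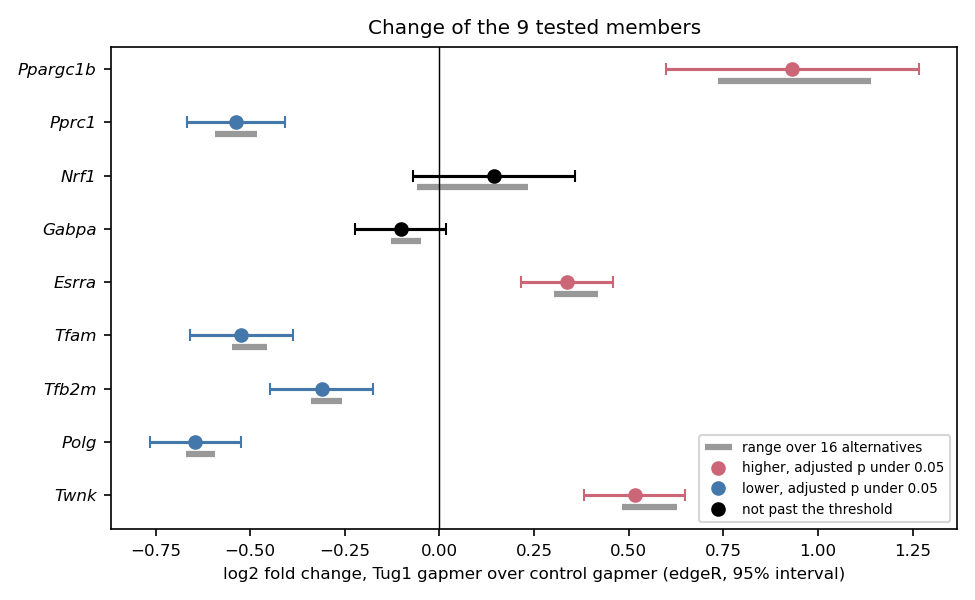
Log2 fold change of the 9 tested genes, Tug1 gapmer over control gapmer, with the 95% interval of edgeR's quasi-likelihood fit; the grey bar under each point is the range over 16 alternative settings. Ppargc1b (0.93), Twnk (0.52) and Esrra (0.34) lie to the right of 0 and Polg (-0.64), Pprc1 (-0.54), Tfam (-0.52) and Tfb2m (-0.31) to the left in every setting, while the bar of Nrf1 crosses 0.

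Among the 4 genes for proteins that act on mitochondrial DNA, Tfam, Tfb2m and Polg fell and Twnk rose. Tfam had 46.3, 46.9 and 45.9 CPM in the controls and 31.7, 33.4 and 31.6 CPM after the Tug1 gapmer. The 2 groups lay far apart relative to their spread, with SDs of 0.518 and 0.988 CPM. The log2 fold change was -0.52 (SE 0.0657 with edgeR adjusted p 3.37e-07), to 69.5% of the control mean.

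Tfb2m had 46.8, 45.7 and 44.7 CPM in the controls and 38.4, 36.3 and 35.8 CPM after the Tug1 gapmer. Its fall to 80.6% of the control mean (log2 fold change -0.31, SE 0.0652, edgeR adjusted p 0.000254) was the smallest of the 4 that were lower. Its relative Tfb1m, which methylates mitochondrial ribosomal RNA, was at 7.71 ± 0.267 CPM in the controls and 8.59 ± 0.832 CPM after the Tug1 gapmer (SD, n = 3) and did not pass (log2 fold change 0.16, edgeR adjusted p 0.315). Within libraries the log2 ratio of Tfb2m to Tfb1m counts was 2.56 ± 0.0726 in the controls and 2.1 ± 0.185 after the Tug1 gapmer (SD, n = 3), again without overlap.

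Polg had 72.3, 76.0 and 71.6 CPM in the controls and 45.7, 48.6 and 46.4 CPM after the Tug1 gapmer, with no overlap. Its log2 fold change of -0.64 (SE 0.0584 with edgeR adjusted p 2.04e-09) was the lowest of the 9 and lay at the 76.5th percentile of absolute change among all tested genes. Polg2, the accessory subunit that holds the polymerase on DNA, was lower as well, with 9.51, 8.36 and 7.25 CPM in the controls and 4.06, 5.40 and 4.61 CPM after the Tug1 gapmer (log2 fold change -0.84, SE 0.158, edgeR adjusted p 7.87e-05). The log2 ratio of Polg to Polg2 was 3.13 ± 0.193 in the controls and 3.32 ± 0.159 after the Tug1 gapmer (SD, n = 3), and these overlapped.

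Twnk went the other way. It had 36.3, 39.2 and 37.1 CPM in the controls and 52.6, 56.2 and 52.2 CPM after the Tug1 gapmer, so every Tug1 gapmer library was above every control library. The log2 fold change was 0.52 (SE 0.0647 with edgeR adjusted p 3.39e-07), or 143% of the control mean. The log2 ratio of Tfam to Twnk counts was 0.35, 0.26 and 0.31 in the controls and -0.73, -0.75 and -0.72 after the Tug1 gapmer, a difference of -1.04. For Polg to Twnk, a pair chosen after its values were seen, it was 0.99, 0.95 and 0.95 in the controls and -0.20, -0.21 and -0.17 after the Tug1 gapmer. A ratio inside a library does not depend on how libraries are scaled.

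Among the ratios set for testing, 4 are reported: Gabpa to Gabpb1, Tfb2m to Tfb1m, Polg to Polg2 and Tfam to Twnk. They were compared with an exact permutation test over the 6 libraries (two-sided). The exact test gave p = 0.1 for Gabpa to Gabpb1, Tfb2m to Tfb1m and Tfam to Twnk, which is the smallest p that 3 against 3 libraries allow, and p = 0.3 for Polg to Polg2. Adjusted over the 4 ratios, these exact p-values were 0.133 and 0.3, so this permutation test cannot place any ratio past 0.05 with 3 against 3 libraries. Ratios of Ppargc1a to Ppargc1b and to Pprc1 were also set for testing. They are not given and were left out of the adjustment, because Ppargc1a counts were at or under the detection limit in 5 of 6 libraries.

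**Figure D3:**
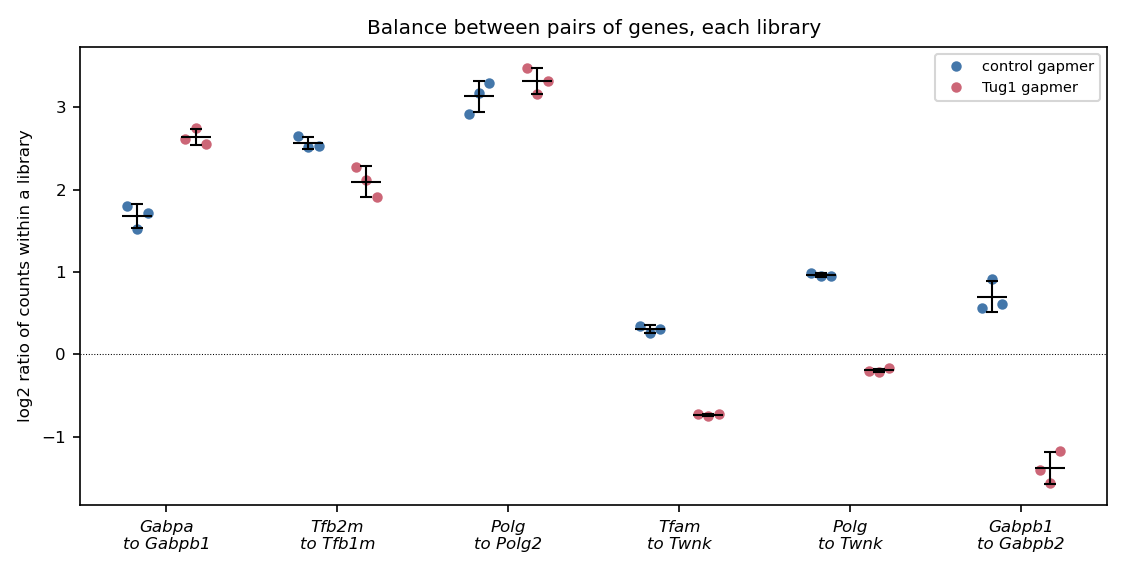
Log2 ratio of the counts of 2 genes within each library, control gapmer in blue and Tug1 gapmer in red, with the mean and SD of 3 libraries. Tfam to Twnk and Polg to Twnk change sign, from 0.30 and 0.97 on average to -0.74 and -0.19, Gabpb1 to Gabpb2 goes from 0.70 to -1.38, and the groups overlap only for Polg to Polg2.

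In assembly GRCr8 the RefSeq table of rat genes places other genes over 6 of the 10. Rpl36-ps6 overlaps Ppargc1a, and the microRNA genes Mir3557 and Mir378 overlap Ppargc1b. At the ends of the other 4, Atp5pf overlaps Gabpa, Trmt112 overlaps Esrra, Fanci overlaps Polg and Mrpl43 overlaps Twnk. Whether the authors' counting used strand is not given in the sources used here, so reads from the overlapping parts could not be assigned with certainty. The log2 fold changes of the genes at the ends were 0.08 for Atp5pf (edgeR adjusted p 0.225), -0.39 for Trmt112 (0.00744), -0.07 for Fanci (0.738) and -0.50 for Mrpl43 (0.00343). Esrra and Twnk were called higher and Trmt112 and Mrpl43 lower, and the part of overlapping reads in these values was not tested.

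The 4 genes that act on mitochondrial DNA moved apart, and their promoter windows are shown so that their letters can be compared. RefSeq promoter windows (250 bases before to 50 after a transcript start, build GRCr8) were found for all 10 genes. They were searched on both strands for the core of the NRF1 site (GCATGCGC), a core of the ETS site that GABP binds (CCGGAAG), the estrogen-related receptor element (TCAAGGTCA) and the cyclic AMP response element (TGACGTCA), and matches are in capitals. The 4 motifs share no sequence that would make one match another.
Tfam, chr20:17355123-17355422, plus strand: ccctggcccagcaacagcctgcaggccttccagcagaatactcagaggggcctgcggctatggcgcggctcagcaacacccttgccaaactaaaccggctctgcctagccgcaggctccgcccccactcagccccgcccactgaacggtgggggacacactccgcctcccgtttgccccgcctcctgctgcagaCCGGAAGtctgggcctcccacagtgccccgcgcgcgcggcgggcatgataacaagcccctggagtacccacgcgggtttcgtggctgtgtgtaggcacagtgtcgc
Tfb2m, chr13:93828545-93828844, minus strand: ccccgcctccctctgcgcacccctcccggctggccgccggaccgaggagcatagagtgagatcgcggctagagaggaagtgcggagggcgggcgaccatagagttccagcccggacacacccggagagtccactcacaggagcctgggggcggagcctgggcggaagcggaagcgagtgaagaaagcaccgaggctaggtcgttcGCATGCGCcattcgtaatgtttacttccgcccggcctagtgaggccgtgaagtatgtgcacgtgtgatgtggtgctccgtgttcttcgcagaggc
Polg, chr1:142808789-142809088, minus strand: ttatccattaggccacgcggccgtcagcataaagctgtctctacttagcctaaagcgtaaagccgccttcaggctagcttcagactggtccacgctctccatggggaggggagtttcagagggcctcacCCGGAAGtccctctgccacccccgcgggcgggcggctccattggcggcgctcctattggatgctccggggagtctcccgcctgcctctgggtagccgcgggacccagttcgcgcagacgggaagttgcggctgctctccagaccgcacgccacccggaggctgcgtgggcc
Twnk, chr1:253817314-253817613, plus strand: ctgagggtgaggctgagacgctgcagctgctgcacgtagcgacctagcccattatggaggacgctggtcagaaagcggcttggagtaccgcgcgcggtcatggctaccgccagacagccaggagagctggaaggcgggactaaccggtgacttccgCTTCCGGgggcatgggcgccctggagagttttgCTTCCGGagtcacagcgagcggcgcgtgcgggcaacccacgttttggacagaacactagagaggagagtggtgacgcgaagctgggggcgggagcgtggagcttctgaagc

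The exact ETS stretch CCGGAAG was in the windows of Tfam, Polg, Twnk and Gabpa. It was shared by genes that fell (Tfam, Polg) and by Twnk, which rose and has it at 2 places on the reverse strand. It was in 8.75% of 33469 windows in the table and in 16.4% of the 12289 windows of tested genes. The NRF1 core was in the windows of Tfb2m, which fell, and Esrra, which rose, and in 4.73% of the windows of tested genes. The cyclic AMP response element was in the window of Ppargc1a alone among the 10 (2.93% of the windows of tested genes), and the estrogen-related receptor element was in none of the 10 (0.309%). A match is a stretch of letters and does not show that a factor binds there. Only exact letters were searched, so near matches such as gcggaag in the Tfb2m window are not marked.

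**Figure D4:**
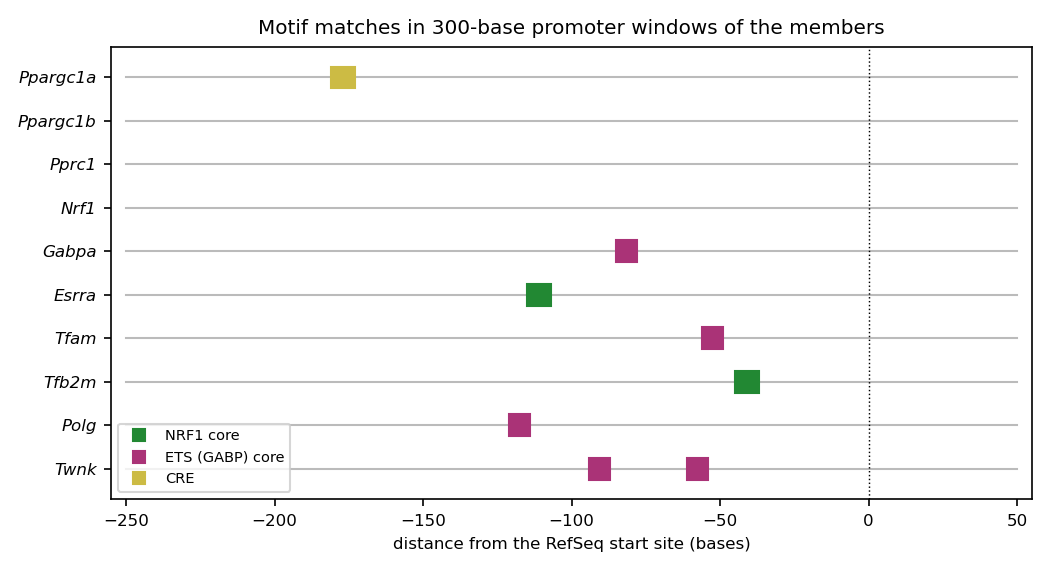
Position of exact motif matches in the 300-base promoter windows of the 10 genes, in bases from the RefSeq start site. Colours mark the NRF1 core, the ETS core CCGGAAG bound by GABP and the cyclic AMP response element. Twnk, which rose, has 2 ETS core matches at -94 and -61, Tfam and Polg, which fell, have 1 each at -56 and -121, and 3 genes (Ppargc1b, Pprc1 and Nrf1) have no match.

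The wider machinery for replicating, transcribing and processing the mitochondrial genome was read from a list of 34 other genes. Of these 33 were tested and 17 passed the threshold, 8 higher and 9 lower, with a median log2 fold change of 0.03 against 0.00 over all tested genes. That share was 51.5%, against 61.7% of all tested genes. Neither this share nor those of the lists below was tested against that of all genes. Polrmt, the mitochondrial RNA polymerase that works with Tfam and Tfb2m, was lower, with 41.6, 44.7 and 37.6 CPM in the controls and 29.1, 34.1 and 28.8 CPM after the Tug1 gapmer (log2 fold change -0.43, edgeR adjusted p 7.82e-05). Tefm, the elongation factor of the same polymerase, was higher, with 3.84, 4.10 and 4.16 CPM in the controls and 8.99, 7.47 and 7.78 CPM after the Tug1 gapmer (log2 fold change 1.00, edgeR adjusted p 5.90e-06).

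Other members of that list also went both ways. Ung, which removes uracil from DNA, had a log2 fold change of -0.80, and Pnpt1, a polynucleotide phosphorylase of mitochondrial RNA decay, of -0.63. The single-strand binding protein Ssbp1 was slightly higher, from 24.4 ± 1.02 to 28.4 ± 0.555 CPM (SD, n = 3; log2 fold change 0.22, edgeR adjusted p 0.0164). Mgme1, a nuclease that trims mitochondrial DNA ends, had a log2 fold change of -0.13 (95% interval -0.48 to 0.21) and did not pass.

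Genes that supply nucleotides for mitochondrial DNA numbered 22, of which 19 were tested and 16 passed (84.2%, against 61.7% of all tested genes), 9 higher and 7 lower, with a median log2 fold change of 0.10. Of the 19 tested genes, Dguok, the mitochondrial deoxyguanosine kinase, had the highest log2 fold change, from 7.71 ± 0.230 to 14.8 ± 1.11 CPM (SD, n = 3; log2 fold change 0.94). The succinyl-CoA ligase subunit gene Sucla2 (0.64) and the ribonucleotide reductase subunit gene Rrm2 (0.59) were higher by log2 fold change, and Samhd1, a dNTP hydrolase, was at -0.56. Abat, which did not reach the filter, had 3, 0 and 4 counts in the controls and 4, 7 and 14 after the Tug1 gapmer. The sums of 7 and 25 counts gave a ratio of 3.43 with an exact 95% counting interval of 1.44 to 9.39. This interval covers counting error only and not the spread between libraries, and the groups overlapped in CPM. Abat was chosen after its values were seen, so its ratio is a description and does not show a change. Nme4 and Cmpk2 did not reach the filter either. Their ratios were 0.906 (0.439 to 1.86) and 0.480 (0.148 to 1.38). Rrm2 is also a gene of dividing cells.

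The products of the mitochondrial genome were represented by its ribosomal RNAs. The protein-coding genes of that genome were searched for by symbol (Mt-nd1 to Mt-atp8), found no entry under those symbols, and were not analysed here. The small ribosomal RNA mt-Rnr1 had 1341, 1455 and 1563 CPM in the controls and 1316, 1565 and 1460 CPM after the Tug1 gapmer, with a log2 fold change of -0.01 (95% interval -0.12 to 0.11, edgeR adjusted p 0.932). The large ribosomal RNA mt-Rnr2 had a log2 fold change of -0.09 (95% interval -0.21 to 0.03, edgeR adjusted p 0.187). Neither passed the threshold, and the groups overlapped for both. Libraries were made by poly-A selection, so these levels also depend on how much of such RNA the selection carried along.

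PGC-1 activity is set largely by other proteins, and 52 genes of partners, modifying enzymes and upstream regulators were listed for it. Of 47 tested, 38 passed (80.9%, against 61.7% of all tested genes), 24 higher and 14 lower, with a median log2 fold change of 0.15. With the trend with gene length removed, 17 were higher and 16 lower among the same number tested. Lpin1, a coactivator of PPARα with PGC-1α as well as a phosphatidate phosphatase, rose from 15.5 ± 0.972 to 54.9 ± 4.56 CPM (SD, n = 3; log2 fold change 1.83, edgeR adjusted p 2.00e-14). Mapk14, the p38α kinase that phosphorylates PGC-1α, had 40.7, 47.6 and 46.0 CPM in the controls and 131, 129 and 127 CPM after the Tug1 gapmer (log2 fold change 1.53, edgeR adjusted p 2.17e-15). Foxo1, a transcription factor coactivated by PGC-1α, had a log2 fold change of 1.04.

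The enzymes that switch PGC-1α on by deacetylation and phosphorylation did not move together. Sirt1, the deacetylase, had 46.9, 42.0 and 44.2 CPM in the controls and 25.4, 26.6 and 25.5 CPM after the Tug1 gapmer (log2 fold change -0.78, SE 0.0716, edgeR adjusted p 2.44e-09). Of the catalytic subunits of AMP-activated protein kinase, Prkaa1 was lower (log2 fold change -0.30, edgeR adjusted p 6.90e-05) and Prkaa2 higher (0.21, edgeR adjusted p 0.0183). The corepressor gene Nrip1, whose product opposes PGC-1 at nuclear receptors, was higher by 0.21 (edgeR adjusted p 0.00369). Perm1, a muscle regulator induced by PGC-1 and ERR, was near 1 CPM in every library and did not pass (0.15, 95% interval -0.49 to 0.80).

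Genes commonly listed as PGC-1 targets numbered 40. Of 39 tested, 28 passed (71.8%, against 61.7% of all tested genes), 21 higher and 7 lower (30.8% and 30.9% of all tested genes), with a median log2 fold change of 0.17 against 0.00 over all tested genes. The even split over all genes depends on TMM scaling. With library totals, 24 on the list were higher and 6 lower, against 4905 and 3890 of all 14216 tested genes. Genes on this list answer to many other regulators as well. Sod2, the manganese superoxide dismutase of the matrix, went from 83.9 ± 2.67 to 142 ± 5.53 CPM (SD, n = 3; log2 fold change 0.76, edgeR adjusted p 2.81e-11). Other antioxidant genes on the list went both ways. Gpx1 (log2 fold change -0.50), Prdx3 (-0.49) and Prdx5 (-0.25) were lower, Txnrd2 (0.28) was higher and Txn2 (0.11) did not pass. Pdk4, which restrains pyruvate oxidation, and the angiogenic factor gene Vegfa rose by 0.78 and 0.67. Angptl4 had the lowest log2 fold change of the tested genes on the list (-0.63). Cycs, the cytochrome c gene in which NRF1 sites were first described, was lower, from 214 ± 9.04 to 190 ± 5.79 CPM (SD, n = 3; log2 fold change -0.17, edgeR adjusted p 0.00373). Of the respiratory chain subunit genes on the list, Ndufs1 (log2 fold change 0.47), Ndufb5 (0.25), Sdhb (0.25), Cox5b (0.19) and Atp5f1b (0.13) were higher and Cox5a (-0.27) was lower, while Cox4i1 (0.04), Atp5f1a (0.04), Uqcrc1 (0.10) and Uqcrc2 (-0.04) did not pass.

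**Figure D5:**
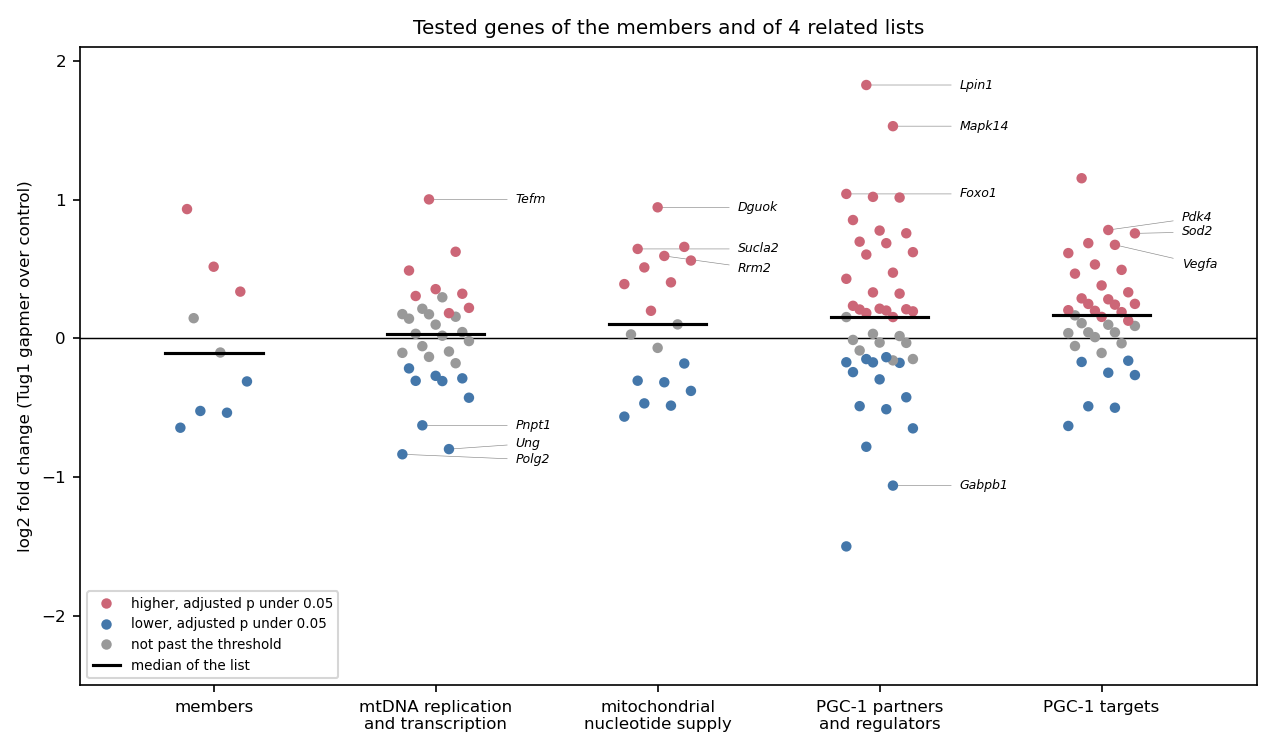
Log2 fold change of every tested gene among the 9 described here and on 4 related lists, coloured by edgeR's call at an adjusted p of 0.05, with the median of each list as a black line and some of the furthest called genes with a mean of at least 5 CPM labelled. Genes lie on both sides of 0 in each column; the medians run from -0.10 for the 9 genes to 0.17 for PGC-1 targets.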

How the data were processed

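Poly-A RNA sequencing libraries of 3 control gapmer and 3 Tug1 gapmer samples were grouped by their titles. Gene counts were deposited by the authors as whole numbers, unscaled and 1 column per library, as the values themselves show; FastQC 0.11.7, fastp 0.14.1 and STAR 2.5 are named in the submitters' processing notes, and the counting tool, genome build and annotation are not given in the sources used here.

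The analysis used edgeR 4.0.16 under R 4.3.3, with its expression filter (minimum count 10, minimum total 15) and TMM scaling. Groups were compared over all 6 libraries, with no block, by the quasi-likelihood test, which is two-sided; the prior count was 0.125. P-values were Benjamini-Hochberg adjusted over 14216 tested genes and called at 0.05. The SE is the absolute log2 fold change divided by the root of the F statistic. Log2 ratios within a library used counts plus 0.5. Columns outside the 6 libraries numbered 0. Alternatives included DESeq2 1.42.0 and limma-voom (limma 3.58.1). In simulated counts over 14021 genes, edgeR recovered 68.0% of 97 genes changed by 0.5 and 87.8% of 98 changed by 1 (absolute log2). This was a far smaller share of changed genes than was called in the data, so these rates do not give the sensitivity here.

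Members, lists, motifs and the length offset were chosen with earlier results of these data known. Genes named beyond the 10 were fixed partners and, per list, the 4 called genes with the largest absolute log2 fold change among those averaging 5 CPM or more whose groups did not overlap. Of the genes this rule gave, 2 are not reported here by name. Samhd1, Abat, Nme4, Cmpk2, Angptl4, the respiratory chain subunit genes, the overlapping neighbours and the paired ratios marked so were chosen after their values were seen. So were the antioxidant genes other than Sod2. Sequences are from RefSeq tables of build GRCr8; no gene coordinates were used for the counts.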

Additional observations from a re-analysis of the deposited data

How the results depend on the processing

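The 7 genes called among the 9 tested were called under each of 16 alternatives, in the same direction. The alternatives were other size factors, library totals, DESeq2's Wald test, limma-voom, 2 filters, an adjusted p under 0.01, the replicate block, each library left out, and an offset for genomic gene length alone and with the block. Of 284 combinations of result and alternative, 2 reversed: Nrf1, which was not called, was at -0.0583 with the length offset and at -0.0589 with the length offset and replicate block; Nrf1 is a long gene, and the cause was not tested further. Across genes, same-numbered libraries deviated from their group means with correlations of -0.0053, 0.0298 and 0.027. Those of differently numbered libraries ran from -0.0323 to 0.0059. All were small, and pairing by replicate number was not clear from them. With the replicate block 8848 genes were called in place of 8773, and none of the 9 changed its call or direction.

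When 1 library was left out, log2 fold changes ranged from 0.81 to 1.14 for Ppargc1b, -0.55 to -0.51 for Tfam, -0.67 to -0.62 for Polg and 0.48 to 0.55 for Twnk. Library totals in place of TMM moved the median log2 fold change of all genes to 0.06. Depth limits Ppargc1a, Esrrb and Esrrg, which did not reach the filter; without it, Ppargc1a was not called (edgeR adjusted p 0.262).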
